A study of Mus musculus with 4 samples.

Results

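Imprinted genes are expressed from only the maternal or only the paternal copy, according to methylation that was laid down in egg or sperm. The table of regions that compares Tet2/Tet3 DKO with WT was searched in the windows of 49 named imprinted genes, each taken as its gene body with 5 kb on either side (GRCm38, mm10). These windows held 744 of the 484555 listed regions, counting a region shared by neighbouring genes once, and 59 regions were so shared. The 49 genes lie in 18 chromosomal domains, and 47 of them had a listed region; Ins2, which encodes insulin, and Ndn, a gene of the Prader-Willi interval, had none.

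Whole-genome bisulfite sequencing gave the methylation levels of sorted hair matrix keratinocytes, which divide in the hair bulb and form the hair shaft, from mice at postnatal day 4.5. There were 2 libraries from Tet2/Tet3 DKO mice, in which Krt14-Cre removes Tet2 and Tet3 in cells of the keratin 14 epithelial lineage, and 2 libraries from WT mice. The deposited values are the authors' group means per region, so no value per library was used, no difference below has a replicate check or a test, and the read depth is unknown. Whether the libraries of 1 genotype are from different animals is not stated in the labels. The table numbers its groups without naming them, and its title, which names WT before DKO, was used to tell them apart, so every direction below rests on that order. Each region carries the authors' spread estimate, in percentage points, which neighbouring regions can share.

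At an imprinting control region 1 parental allele is methylated and the other is not, so bulk DNA from both alleles reads near 50%. Most such regions are methylated on the maternal allele and lie at promoters of paternally expressed transcripts, while a few between genes, such as those upstream of H19, Meg3 and Rasgrf1, are methylated on the paternal allele. The protein ZFP57 binds methylated copies of the letters TGCCGC and, with TRIM28, keeps the marked allele methylated when the embryo's other methylation is erased. TET enzymes oxidise 5-methylcytosine and TET1 takes part in clearing imprints from germ cells. Bisulfite sequencing reads 5-methylcytosine and 5-hydroxymethylcytosine alike.

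The promoters below are shown because each lies on a listed region that tells apart the kinds of level found at these genes. The sequences are from RefSeq (GRCm38.p6), run from 250 bases before the annotated start to 50 after it, and are printed 5′ to 3′ on the gene's strand, with TGCCGC or its reverse complement GCGGCA in capitals. Plagl1 is at chr10:13090582-13090881 (plus strand), Nnat at chr2:157559828-157560127 (plus), Mcts2 at chr2:152686898-152687197 (plus), Meg3 at chr12:109540746-109541045 (plus) and Kcnq1ot1 at chr7:143296498-143296797 (minus). The Gnas promoters, both on the plus strand, are at chr2:174327499-174327798 (internal start) and chr2:174329756-174330055 (downstream start).
Plagl1: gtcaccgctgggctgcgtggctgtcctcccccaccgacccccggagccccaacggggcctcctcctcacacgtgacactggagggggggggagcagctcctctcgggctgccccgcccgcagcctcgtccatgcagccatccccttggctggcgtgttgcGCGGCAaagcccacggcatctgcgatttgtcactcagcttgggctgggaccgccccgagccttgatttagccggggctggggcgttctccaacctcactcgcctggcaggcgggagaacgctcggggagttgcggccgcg
Nnat: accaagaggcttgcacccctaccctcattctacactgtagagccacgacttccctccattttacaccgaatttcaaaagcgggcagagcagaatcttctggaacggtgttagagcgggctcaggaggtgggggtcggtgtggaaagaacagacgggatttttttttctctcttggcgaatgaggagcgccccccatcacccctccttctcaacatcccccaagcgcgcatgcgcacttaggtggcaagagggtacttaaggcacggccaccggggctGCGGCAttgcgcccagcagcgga
Mcts2: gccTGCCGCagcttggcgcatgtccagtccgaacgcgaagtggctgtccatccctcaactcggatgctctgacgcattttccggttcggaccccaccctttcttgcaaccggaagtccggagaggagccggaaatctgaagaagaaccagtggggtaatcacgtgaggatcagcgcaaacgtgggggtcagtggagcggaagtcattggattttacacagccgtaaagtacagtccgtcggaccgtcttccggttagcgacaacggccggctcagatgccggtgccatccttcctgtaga
Meg3: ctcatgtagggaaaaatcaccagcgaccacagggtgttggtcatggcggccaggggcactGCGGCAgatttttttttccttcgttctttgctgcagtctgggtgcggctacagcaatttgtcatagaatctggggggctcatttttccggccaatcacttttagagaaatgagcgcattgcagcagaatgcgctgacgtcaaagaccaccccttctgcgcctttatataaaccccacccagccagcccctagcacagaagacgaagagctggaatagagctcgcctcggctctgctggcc
Kcnq1ot1: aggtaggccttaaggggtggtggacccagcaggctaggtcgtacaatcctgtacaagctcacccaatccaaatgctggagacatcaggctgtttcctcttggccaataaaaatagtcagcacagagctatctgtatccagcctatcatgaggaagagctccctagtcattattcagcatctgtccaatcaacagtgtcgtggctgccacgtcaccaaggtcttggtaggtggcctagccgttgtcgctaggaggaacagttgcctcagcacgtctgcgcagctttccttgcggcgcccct
Gnas internal start: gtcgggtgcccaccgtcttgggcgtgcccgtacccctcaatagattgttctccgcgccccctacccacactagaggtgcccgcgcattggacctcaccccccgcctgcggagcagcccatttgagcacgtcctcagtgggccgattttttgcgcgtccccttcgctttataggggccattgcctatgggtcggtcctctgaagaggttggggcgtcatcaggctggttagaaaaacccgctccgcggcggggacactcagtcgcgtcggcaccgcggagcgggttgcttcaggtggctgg
Gnas downstream start: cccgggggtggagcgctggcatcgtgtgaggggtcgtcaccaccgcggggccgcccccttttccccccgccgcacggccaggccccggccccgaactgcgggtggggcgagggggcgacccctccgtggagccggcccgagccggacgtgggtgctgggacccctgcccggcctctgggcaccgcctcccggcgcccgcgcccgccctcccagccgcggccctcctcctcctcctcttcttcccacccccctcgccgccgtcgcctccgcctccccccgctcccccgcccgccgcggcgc
The RefSeq promoter table matched 39 of the 49 genes. Either form of the 6 letters, searched on both strands, was present in 8 of the 24 promoters (33.3%) of the 14 matched genes that have a control region of their own. These promoters include overlapping pairs at Mest, whose pair holds the same matches and counts 2 times, and at Gnas. Among all 32851 promoters of the same length the share was 11.6%. The Plagl1, Nnat, Mcts2 and Meg3 promoters above hold 1 match each, and the Kcnq1ot1 and both Gnas promoters hold none in these 300 bases. A match of letters is a description and not a binding site. CpG counts were 26 for Plagl1, 25 for Mcts2, 17 for Nnat, 13 for Meg3 and 9 for Kcnq1ot1, against a median of 7 over all promoters. The internal and downstream Gnas promoters had 27 and 40. The 6 letters hold a CpG and the 24 promoters had a median of 14 CpGs, so the shares of 33.3% and 11.6% compare promoters of unlike CpG content.

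Listed CpG-dense regions of intermediate WT methylation at the imprinted genes differed by less than 10 points in the DKO. Of the member regions with at least 40 cytosine positions (which count the strands of a CpG mostly apart), at most 20 bp per position and a WT level of 30% to 70%, all 21 differed by less than 10 points and none was 20 points higher in the DKO. Over all 1177 listed regions of that kind, 29.2% differed by less than 10 points and 66.9% were at least 20 points higher in the DKO. The 21 regions had a median level of 38.1% in the DKO (29.0% to 48.1%) and 41.1% in the WT (35.7% to 50.7%). The DKO mean was the lower in all 21, with differences of -9.02 to -1.17 points. The authors' spread estimates for these regions ran from 3.33 to 6.92 points, and 11 of the 21 differences were larger than the estimate of their own region. The authors' statistic was positive for all 21, and no region in the table has an extreme statistic between -4.02 and 1.53. Regions between these limits are not listed, so the shared direction of the 21 cannot be told apart from an effect of the listing. For the same reason, the 21 of 21 and the 29.2% are shares of listed regions only. They cannot show how often dense intermediate regions keep their level. Over all 1177 listed regions of that kind, 344 differed by less than 10 points and the DKO mean was lower in 283.

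**Figure D1:**
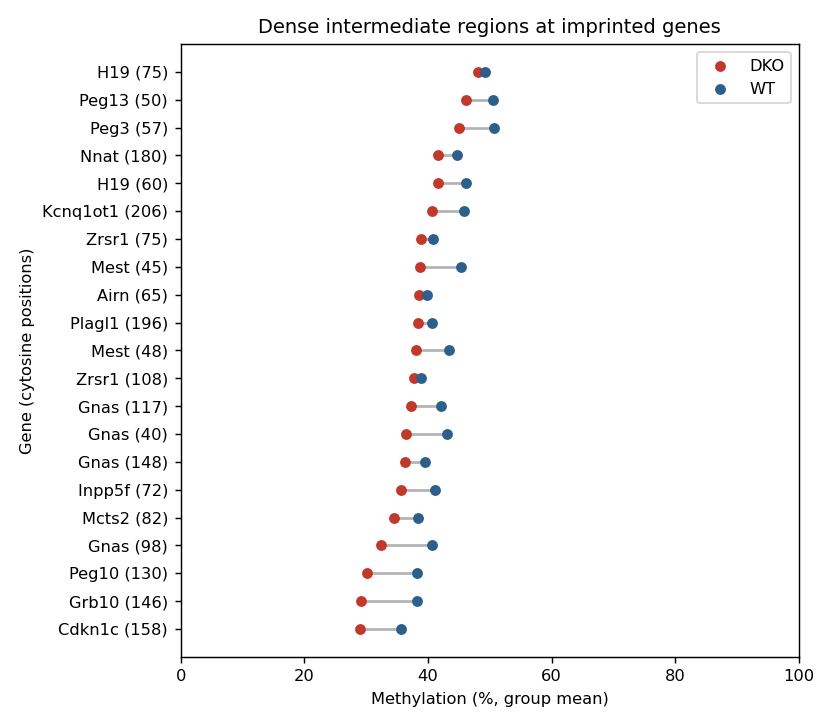
Group-mean methylation (%) of the 21 CpG-dense intermediate regions at imprinted genes, with DKO and WT points joined per region and the number of cytosine positions after each gene name. DKO levels lie between 29.0% and 48.1%, each left of its WT point, which lie between 35.7% and 50.7%.

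These limits on density and level were chosen after the values were seen, and the count depends on them. With at least 20 positions, 27 of 34 such member regions differed by less than 10 points and 7 (20.6%) were at least 20 points higher in the DKO, against 72.0% of 5354 listed regions. With at least 10 positions, 14 of 46 member regions (30.4%) were at least 20 points higher, against 68.8% of 12193. With at least 100 positions, none of 9 member regions was, but over all 67 listed regions of that size only 19.4% were 20 points higher and 71.6% differed by less than 10 points. Among sparser member regions, with over 20 bp per position, at least 10 positions and the same WT band, 76 of 105 (72.4%) were at least 20 points higher, against 76.2% of listed regions of that kind.

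The maternally methylated promoters of paternally expressed genes gave most of these regions. Kcnq1ot1 is the long non-coding RNA that silences its neighbours on the paternal chromosome, and its start lay in a region of 206 positions (chromosome 7, 143295052 to 143297240) at 40.6% in the DKO and 45.8% in the WT. The start of Plagl1, a zinc finger growth regulator, lay in 1 of 196 positions (chromosome 10, 13090056 to 13091808) at 38.4% in the DKO and 40.7% in the WT. Nnat encodes a small membrane protein and sits in an intron of Blcap, and its region of 180 positions (chromosome 2, 157559484 to 157561116) was at 41.6% in the DKO and 44.7% in the WT. The Kcnq1ot1 difference of -5.17 points was larger than the authors' spread estimate of 3.93 points. The Plagl1 and Nnat differences of -2.23 and -3.04 points were smaller than their estimates of 4.98 and 4.10 points.

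Zrsr1, a splicing factor gene copied into an intron of Commd1, had a pair of adjacent regions 77 and 850 bp from its start on chromosome 11. That at 22972082 to 22972810 was at 37.7% in the DKO and 38.9% in the WT, and that at 22972855 to 22973867 was at 38.9% in the DKO and 40.8% in the WT. Airn is the non-coding RNA that runs antisense through Igf2r and silences it on the paternal chromosome, and the region 219 bp from its start (chromosome 17, 12741530 to 12742307) was at 38.5% in the DKO and 39.8% in the WT. Mcts2 is a retrogene within H13, and its start lay in a region (chromosome 2, 152686927 to 152687562) at 34.6% in the DKO and 38.4% in the WT. Peg13 is a non-coding RNA within Trappc9, and its region (chromosome 15, 72808920 to 72809583) was at 46.2% in the DKO and 50.5% in the WT. None of these 5 regions differed by more than 4.30 points.

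Peg10 and Sgce share a promoter, and the region over it (chromosome 6, 4746906 to 4747893, 130 positions) was at 30.1% in the DKO and 38.2% in the WT, with a spread estimate of 6.46. Mest encodes a hydrolase-like protein of mesoderm, and its regions of 48 and 45 positions (chromosome 6, 30736749 to 30737305 and 30738683 to 30739553) were at 38.1% and 38.7% in the DKO, against 43.4% and 45.4% in the WT. Inpp5f encodes an inositol phosphatase, and a dense region inside it (chromosome 7, 128688245 to 128688900) was at 35.6% in the DKO and 41.1% in the WT. Its annotated start lay 76880 bp away.

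A fixed limit of 1 kb from an annotated start, at least 10 positions and levels of 30% to 70% in both genotypes took in 15 regions at 12 of the 18 genes with a control region of their own. For genes with no promoter entry, among them H19, Peg10 and Peg13, the distance was to the nearer gene end, whichever end that was. The 15 regions had a median of 38.5% in the DKO and 43.1% in the WT, and the differences ran from -8.16 to -1.17 points. The limit on the DKO level leaves out any region that rose above 70% or fell below 30%. These differences therefore cannot show how often regions near a start kept their level. Just outside that limit, the Grb10 region 1012 bp from an internal start (chromosome 11, 12026129 to 12026959, 146 positions) was at 29.2% in the DKO and 38.2% in the WT. Grb10 encodes an inhibitor of insulin and growth factor signalling, and its difference of -9.02 points, with a spread estimate of 3.65, was the widest of the 21 dense regions. The Peg3 region 1131 bp from its start (chromosome 7, 6728317 to 6729288) was at 45.1% in the DKO and 50.7% in the WT. Peg3, a zinc finger gene, shares its promoter stretch with Usp29. The Snrpn region 1018 bp from a start (chromosome 7, 60002888 to 60004181, 35 positions) was at 51.4% in the DKO and 59.7% in the WT. Gains of at least 20 points also lay just outside the limit. A Peg3 region at 1641 bp was at 61.2% in the DKO and 39.8% in the WT. An Impact region at 1732 bp was at 84.0% in the DKO and 57.4% in the WT. A Plagl1 region at 1998 bp was at 74.6% in the DKO and 42.3% in the WT. The other regions just outside the limit differed by less than 10 points.

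Of the genes with a paternally methylated control region, H19, the non-coding RNA expressed from the maternal chromosome, had 3 listed regions on chromosome 7. The region across 1 gene end (142577084 to 142578454) was at 48.1% in the DKO and 49.3% in the WT, and the region beyond that end (142580201 to 142580959) was at 41.6% in the DKO and 46.1% in the WT. Only the third, inside the gene near its other end (142575700 to 142576292, 21 positions), differed widely, with 78.0% in the DKO and 46.4% in the WT, 792 bp from the first. Meg3, a non-coding RNA of the maternal chromosome, had 2 listed regions, at 39.2% in the DKO and 46.1% in the WT 145 bp from its start and at 32.2% in the DKO and 40.7% in the WT further on. Between Dlk1 and Meg3, outside both windows, 9 regions were listed and the DKO mean was lower in each, by 2.39 to 7.10 points. The region of 30 positions 32.2 kb upstream of Rasgrf1 (chromosome 9, 89876545 to 89877291) was at 40.7% in the DKO and 48.1% in the WT. Rasgrf1 encodes an exchange factor for Ras, and its own start was at 2.92% in the DKO and 2.68% in the WT.

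Gnas, which encodes the stimulatory G protein alpha subunit from a locus with several alternative starts, held intermediate, low and gained regions. Its first annotated start lay 23 bp from a region at 36.5% in the DKO and 43.1% in the WT. The internal start printed above lay in a region of 148 positions (chromosome 2, 174327272 to 174328270) at 36.3% in the DKO and 39.6% in the WT. The downstream start, also printed above, lay in a region of 208 positions (174329242 to 174331419) at 6.97% in the DKO and 6.04% in the WT. Between the dense stretches, a region of 22 positions (174324621 to 174325523), 1749 bp before the internal-start region, was at 88.4% in the DKO and 47.6% in the WT. Further into the gene a region of 37 positions (174338275 to 174339062) was at 77.8% in the DKO and 35.5% in the WT. Of the 22 listed regions of Gnas, 8 were at least 20 points higher in the DKO, and 8 had a lower DKO mean, with a lowest difference of -8.29 points.

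**Figure D2:**
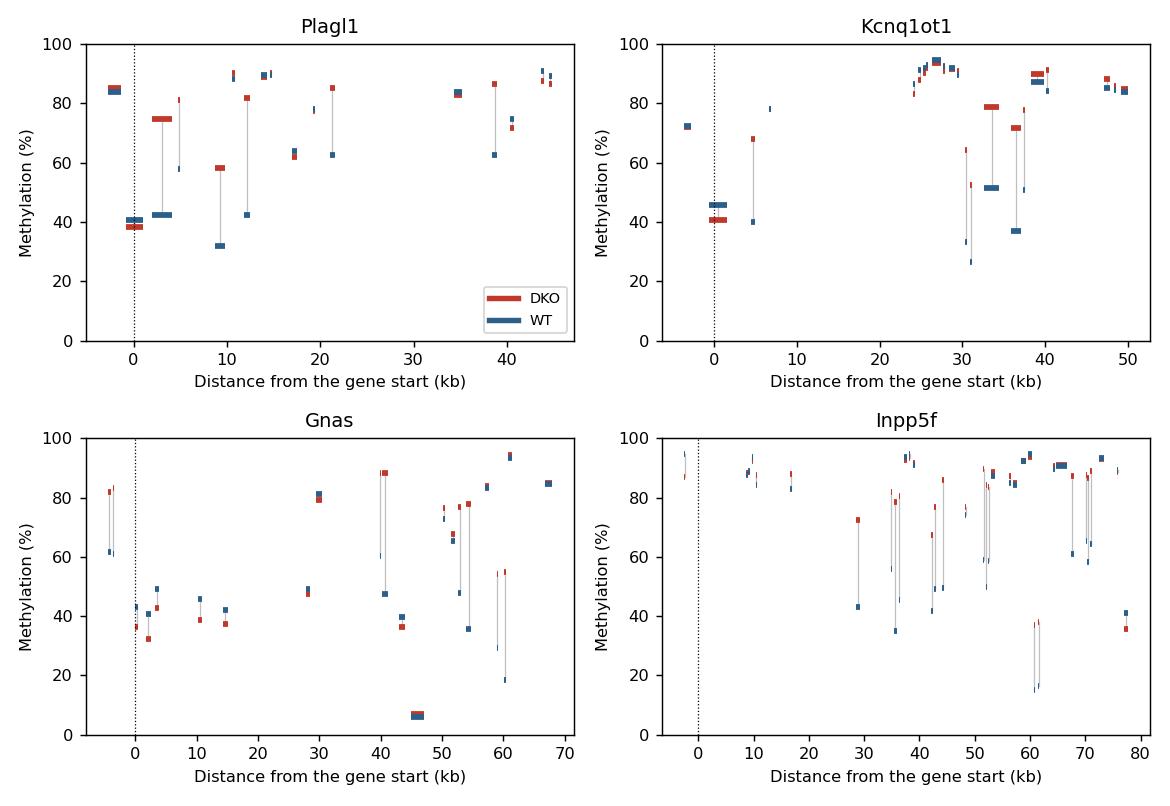
Group-mean methylation (%) of each listed region against distance from the gene start (kb, in the direction of transcription) at Plagl1, Kcnq1ot1, Gnas and Inpp5f, with DKO in red, WT in blue and a grey line joining the pair. Regions near 40% in both genotypes, such as those of 196 positions at the Plagl1 start and 206 at the Kcnq1ot1 start, stand beside regions 20 to over 40 points higher in the DKO.

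Gains of at least 20 points lay in all 18 domains. In the 744 member regions 194 (26.1%) were at least 20 points higher in the DKO, against 22.9% of all listed regions, and the windows of 35 of the 49 genes held such a region, against 62.8% of 34610 protein-coding and lncRNA gene windows, whose median length was shorter (22.8 kb, and 40.7 kb for the imprinted genes). Per Mb of window there were 52.05 gained regions at imprinted genes and 57.8 at all genes, so the members held about the usual number. The gained regions had a median level of 75.2% in the DKO and 46.2% in the WT, and 169 of the 194 reached 60% in the DKO. Of the gained regions 181 lay across gene bodies and 13 in the flanks. Each gain was at least 4.97 times the authors' spread estimate of its region, with a median of 7.32 times. The 20-point limit itself sets a high ratio where spread estimates are a few points, so these ratios are not separate support for the gains. Dense intermediate regions lay in 14 of the domains, and the 4 without one also held gained regions.

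**Figure D3:**
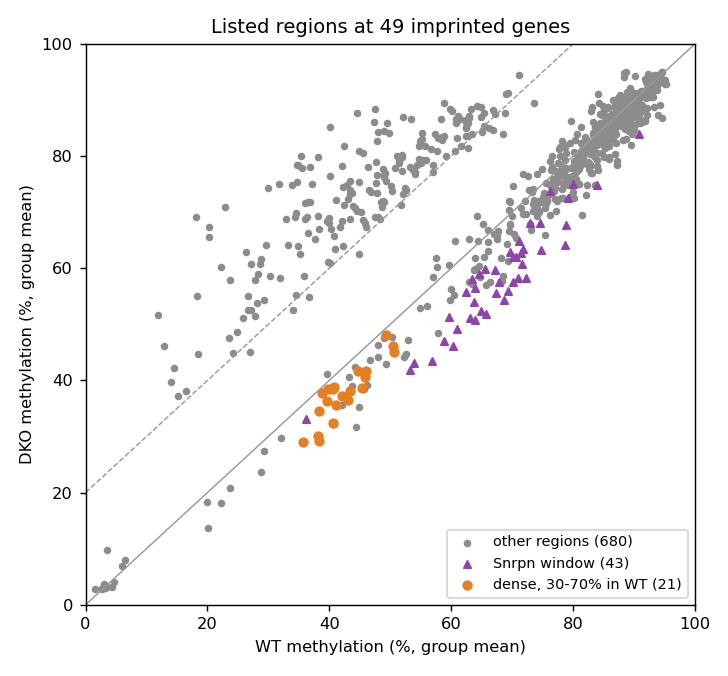
DKO against WT group-mean methylation (%) for the 744 listed regions at 49 imprinted genes; the solid line marks equal levels and the dashed line a DKO level 20 points higher. The 21 dense intermediate regions (orange) and the 43 regions of the Snrpn window (purple) lie below the solid line, while 194 regions lie on or above the dashed line.

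Among listed regions, a WT level near 50% alone did not go with a kept level. Regions with an extreme statistic between -4.02 and 1.53 are absent from the list. The shares below therefore cannot show how often a WT level near 50% is kept across the genome. Of the 149 member regions at 40% to 60% in the WT, 28 (18.8%) were also at 40% to 60% in the DKO, against 14.3% of the 77181 listed regions that began there. The 95% exact binomial interval on the 18.8% was 12.9 to 26.0 and included the 14.3%. It covers counting error over regions only and takes neighbouring regions as independent, so it can be too narrow. A further 106 of the 149 lay above 60% in the DKO and 15 lay below 40%. A rise of at least 20 points was seen in 101 of the 149 (67.8%), against 76.0% of all such listed regions. The 28 regions that stayed had a median of 20.7 bp per position and the 15 that ended below 40% a median of 11.6, while the 106 that ended above 60% had 29.5. Of the 28, the DKO mean was lower in 27, and all 15 were lower by construction. Among WT levels of 20% to 40%, 55 of 73 member regions (75.3%) were at least 20 points higher, against 85.0% of listed regions, and at 60% to 80% it was 29 of 196 (14.8%), against 9.34%.

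Regions that stayed at 40% to 60% also lay in genes with no control region of their own. In Usp29, a ubiquitin protease gene beside Peg3, a region of 53 positions (chromosome 7, 6917330 to 6918830) was at 46.3% in the DKO and 48.0% in the WT. In Trappc9, which encodes a trafficking protein, a region of 24 positions (chromosome 15, 72920867 to 72921598) was at 47.7% in the DKO and 50.3% in the WT. In the flank of Slc22a18, a transporter gene, a region of 28 positions (chromosome 7, 143469740 to 143470974) was at 44.1% in the DKO and 52.3% in the WT. In Rian, a non-coding RNA that hosts small nucleolar RNAs, a region of 14 positions (chromosome 12, 109608428 to 109608669) was at 40.7% in the DKO and 43.2% in the WT.

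The widest gain of any member was in H13, which encodes signal peptide peptidase and carries Mcts2 in an intron. Its region of 52 positions (chromosome 2, 152706128 to 152707056) was at 69.1% in the DKO and 18.1% in the WT, 51.0 points apart with a spread estimate of 4.76. The region of the Mcts2 start, described above, lies in the same gene. In Trappc9, a region 2738 bp from Peg13 (chromosome 15, 72802216 to 72802864) was at 70.9% in the DKO and 22.9% in the WT. The voltage-gated potassium channel gene Kcnq1 had its widest gain in a region of 50 positions (chromosome 7, 143367623 to 143368739), at 65.6% in the DKO and 20.3% in the WT.

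Around Igf2r, the receptor that clears IGF2, the widest gain was in the flank of Slc22a2, an organic cation transporter gene. This region of 29 positions (chromosome 17, 12582072 to 12582972) was at 85.2% in the DKO and 40.1% in the WT, and 11 of the 22 listed regions of Slc22a2 were at least 20 points higher in the DKO. Slc22a3, a related transporter of the same domain, had 1 such region of 17. Inpp5f had 16 of 36, and its widest gain (chromosome 7, 128646568 to 128647118) was at 78.5% in the DKO and 34.8% in the WT. Tspan32, a tetraspanin gene expressed in blood cells, had 6 of 12, and they covered 9.26% of its window.

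The remaining domains had narrower gains at their widest. The region in Usp29 (chromosome 7, 6747595 to 6748238) was at 75.1% in the DKO and 31.7% in the WT. That in Plagl1 (chromosome 10, 13102666 to 13103305) was at 81.7% in the DKO and 42.4% in the WT. A region shared by Rtl1, a retrotransposon-derived gene, and Rian (chromosome 12, 109598205 to 109599458) was at 60.2% in the DKO and 22.3% in the WT. This region is the only gained one in the Rtl1 window, and Dlk1 and Meg3 of the same domain held none. The region in Commd1 (chromosome 11, 22964215 to 22964744) was at 75.0% in the DKO and 37.1% in the WT, and that in the flank of Impact, a regulator of translation, was at 84.3% in the DKO and 48.0% in the WT. The region in Ddc, which encodes aromatic amino acid decarboxylase, was at 71.7% in the DKO and 36.0% in the WT. Next to Nnat, a region 3378 bp from the dense one (chromosome 2, 157564494 to 157565102) was at 71.9% in the DKO and 36.5% in the WT. The widest gains were 33.6 points at Copg2, a coatomer subunit gene, 32.1 points at Ppp1r9a, a neuronal actin-binding protein gene, and 31.2 points at Rasgrf1.

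**Figure D4:**
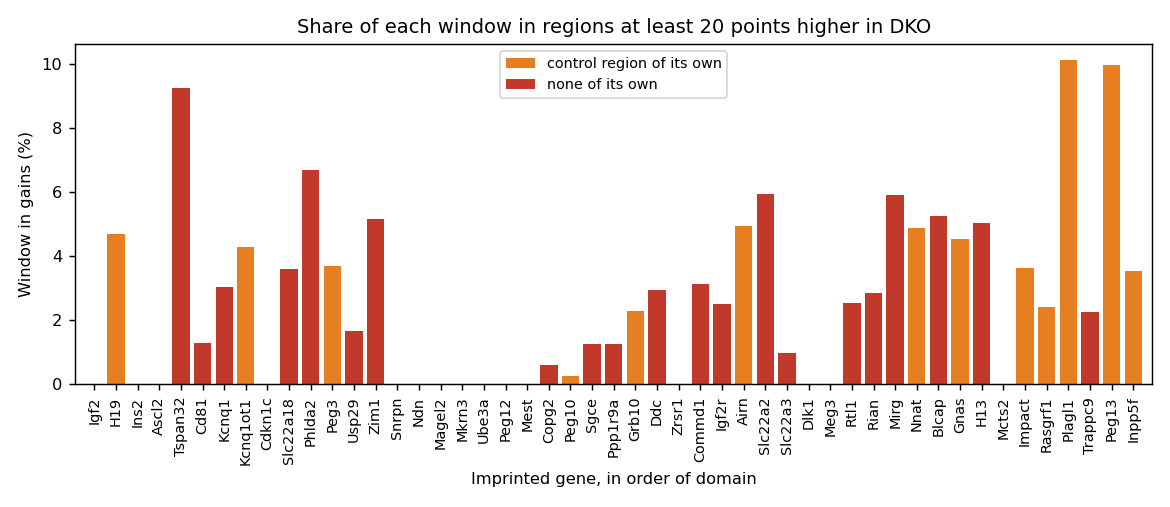
Percent of each gene's window (gene body with 5 kb on either side) that lay in gained regions (DKO at least 20 points above WT), with genes in order of domain and those that have a control region of their own in orange. Plagl1 (10.1%), Peg13 (9.98%) and Tspan32 (9.26%) are highest, and the mean of the 49 genes is 2.70%.

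Averaged over the 49 genes, 2.70% of the window lay in gained regions of 20 points or more, and the mean over 34610 genes was 2.93%. The medians had the opposite order, 2.40% for the imprinted genes and 1.32% for all genes, whose windows are shorter. Coverage was 10.1% for Plagl1, 9.98% for Peg13 and 9.26% for Tspan32. It was 0% for 14 genes, namely Igf2, Ins2, Ascl2, Cdkn1c, Snrpn, Ndn, Magel2, Mkrn3, Peg12, Mest, Zrsr1, Dlk1, Meg3 and Mcts2. Igf2, the growth factor of the paternal chromosome, had a single region, at 74.9% in the DKO and 82.2% in the WT. Cdkn1c, the cell cycle inhibitor p57, had 5 regions, all lower in the DKO, and that inside the gene (chromosome 7, 143459619 to 143460330, 158 positions) was at 29.0% in the DKO and 35.7% in the WT.

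In the Prader-Willi and Angelman domain on chromosome 7 the DKO mean was lower in 51 of 52 member regions, with a median difference of -8.89 points, while medians in the other domains ran from -2.83 to 12.5 points. Snrpn, which encodes a splicing protein and lies in the longest of its windows, held 43 listed regions, and the DKO mean was lower in all 43, by 2.40 to 14.6 points. Of these, 21 were at least 10 points lower, against 2.54% of all listed regions, and none was 20 points higher. Windows of 4 of the 49 genes held a loss of this size, against 7.36% of all gene windows. Outside Snrpn, 3 member regions were at least 10 points lower, 1 each in Usp29 (69.4% in the DKO, 81.5% in the WT), Kcnq1 (31.6% in the DKO, 44.3% in the WT, a single position) and Grb10 (57.8% in the DKO, 68.4% in the WT). The Snrpn regions had medians of 58.3% in the DKO and 68.7% in the WT, with a median spread estimate of 4.30 points. The widest difference (chromosome 7, 60351990 to 60352418) was 64.1% in the DKO and 78.7% in the WT, 14.6 points with a spread estimate of 4.88 on 5 positions. Only 5 of the 43 regions had 10 or more positions, and none of those 5 was 10 points lower. Regions with an extreme statistic between -4.02 and 1.53 are not listed. How far this limit of the listing sets the shared direction of the 43 was not tested.

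**Figure D5:**
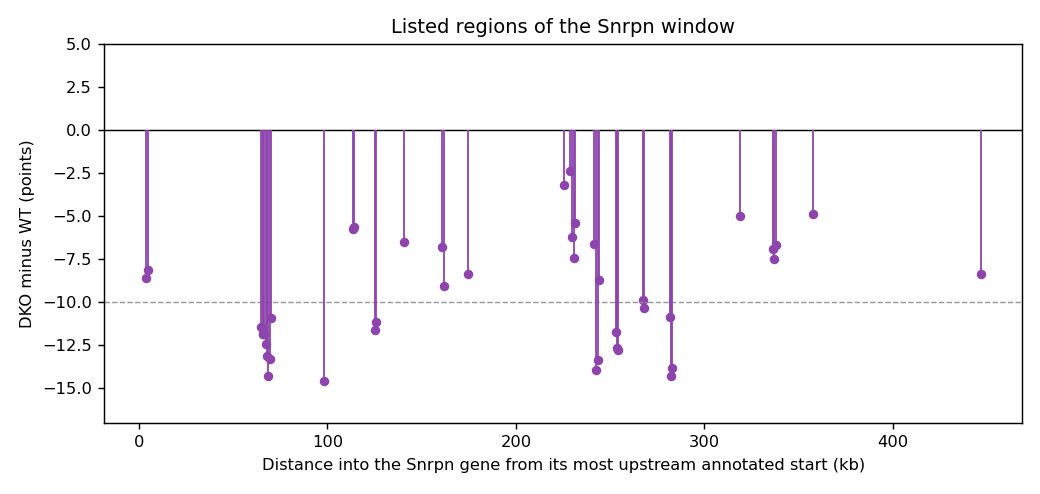
Difference in group-mean methylation (DKO minus WT, percentage points) of the 43 listed regions of the Snrpn window against distance (kb) into the gene from its most upstream annotated start; the dashed line marks 10 points lower in the DKO. All points lie below 0, between -14.6 and -2.40 points, along the whole gene.

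Losses of this size were not limited to the Snrpn gene. From the Ube3a window to the Peg12 window, a stretch of 3246 kb, the DKO mean was lower in 245 of 247 listed regions, against 51.8% of all listed regions. The 2 shares are not alike, since gains of 20 points made up 22.9% of all listed regions and 1 of these 247. The limit of the listing given for the Snrpn window applies to this count of lower regions and to those below. The median difference in the stretch was -7.72 points, and 60 regions were at least 10 points lower. In the 1888 kb between the Snrpn and Ndn windows it was lower in 125 of 125. Magel2, Mkrn3 and Peg12, single-exon genes of the paternal chromosome, had 3, 2 and 2 listed regions, all lower in the DKO, with differences of -9.99 to -3.98 points. Ube3a, the ubiquitin ligase whose loss from the maternal copy gives Angelman syndrome, held the domain's only gain of 20 points, at 51.1% in the DKO and 25.8% in the WT on 4 positions. In the 1000 kb before the Ube3a window the DKO mean was lower in 85 of 155 regions and 37 were at least 20 points higher. In the 1000 kb after the Peg12 window it was lower in 102 of 114.

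Just above the 20-point limit were regions of Gnas (20.2 points) and Zim1 (20.2 points), and just below it were regions of Grb10 (19.98 points) and Mest (19.6 points). At the 10-point limit for losses, regions of Snrpn (-10.3 points) and Grb10 (-10.6 points) were inside and regions of Peg12 (-9.99 points) and Snrpn (-9.86 points) outside.

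The factors that set and keep imprints were looked up as a separate list. Of 15 such factors, all had a listed region and 12 had one at least 20 points higher in the DKO, against 62.8% of all genes. Window lengths were not matched, and the mean share of the window in gained regions was 3.53% for the factors and 2.93% for all genes. In Dnmt3l, the cofactor needed to set imprints in the germ line, a region of 42 positions (chromosome 10, 78056084 to 78057434) was at 81.1% in the DKO and 40.2% in the WT. In Dnmt1, the maintenance methyltransferase, a region of 8 positions was at 71.1% in the DKO and 31.8% in the WT, and in Dnmt3a, a de novo methyltransferase, a region of 18 positions was at 73.1% in the DKO and 34.6% in the WT. Zfp57 held 2 gained regions of 5, while Trim28, its partner, had 1 listed region that differed by -0.29 points. Dppa3, which protects imprints in the early embryo, had 1 listed region, of 45 positions, at 46.1% in the DKO and 53.5% in the WT.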

How the data were processed

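Per the submitters' processing notes, the tools were Trim Galore and Bismark and the build GRCm38 (mm10). How regions were called is not given in the sources used here. Per the file headers, the deposited table gives each region's methylation level as a fraction per group, multiplied to a percent here, a statistic treated as a score, a spread estimate, and a count of cytosine positions. No extreme statistic in the deposited table lay between -4.02 and 1.53. Differences are DKO minus WT. Genes came from RefSeq (GRCm38.p6). The imprinted genes, the lists and the domains were chosen with earlier results of these data known. In each domain the widest gain and any loss of 10 points are named, with the regions of at least 10 positions within 1 kb of a control gene's start. Where a gene had no promoter entry, either gene end served as its start. Other regions at 40% to 60% in the WT that gained are given by counts, and some genes and regions were named after their values were seen. Overlap code was tested on simulated data. Alternatives were other windows, limits, bands and minimum sizes. Software was pandas 2.3.3, numpy 2.4.6, scipy 1.17.1 and matplotlib 3.10.9 in Python 3.11.15.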

Additional observations from a re-analysis of the deposited data

How the results depend on the processing

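No paired analysis was possible because the table holds group means only, and for the same reason no replicate could be left out. The percent of regions at 40% to 60% in the WT that stayed there (18.8%) was 10.7% with a band of 45% to 55%, 33.5% with 35% to 65%, and 32.01% with each region weighted by its positions. The 194 gains of 20 points became 108 with at least 10 positions per region and 62 at 30 points, and mean window coverage fell to 1.34% at 30 points. The 24 losses of 10 points were 1 with at least 10 positions, 12 with at least 100 bp, 0 at 20 points, 114 at 5 points, and 3 without the regions of the Snrpn window, an alternative chosen after seeing the data. In the other 25 of 36 recomputed values the result stayed within 1.5 times its size or within its interval, which can be too narrow. The 25 include values that could not move. The Snrpn window holds no gain of 20 points. Leaving it out therefore could not change the number of gains, the number of genes with a gain or the coverage. The depth is unknown, so it sets no limit that could be given here.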

Other observations

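Imprinted genes outside the 49 held both kinds of region as well. Of 35 further genes, 28 had a region at least 20 points higher in the DKO, against 62.8% of all gene windows. Their widest gains were in Phactr2 (84.0% in the DKO, 34.4% in the WT), Atp10a (74.5% in the DKO, 26.2% in the WT) and Dhcr7 (89.3% in the DKO, 41.2% in the WT). Dense intermediate regions of at least 40 positions were listed at Nap1l5, a retrogene within Herc3, at 43.6% in the DKO and 46.9% in the WT, and at Slc38a4, an amino acid transporter gene, at 48.8% in the DKO and 56.8% in the WT. At Cdh15, a muscle cadherin gene, such a region was at 59.0% in the DKO and 59.3% in the WT. The Zdbf2 region (chromosome 1, 63260727 to 63261701, 58 positions) was the lowest relative to the WT among these 4, at 36.9% in the DKO and 48.8% in the WT, 11.9 points apart with a spread estimate of 4.14.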
